A study of Rattus norvegicus with 18 samples.

Results

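Aqp1, Slc4a4, Slc7a9, Gatm, Lrp2, Cubn, Slc34a1, Slc5a2, Ggt1 and Anpep are 10 genes whose products are characteristic of the proximal tubule of the kidney. They were followed in rat NRK-52E cells on 18 expression arrays. A member was any probe set, the group of short probes that reads 1 transcript, to which the platform annotation gave the symbol of 1 of these genes and no other. The rule used symbols only and found 14 probe sets for the 10 genes, of 31099 probe sets on the array and 14218 genes named alone on a probe set. Aqp1, Slc4a4, Gatm and Slc34a1 had 2 probe sets each, and each other gene had 1.

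NRK-52E is an established rat kidney epithelial line, given in the labels as derived from the Osborne-Mendel strain and as renal proximal tubular. Confluent cultures were kept with 0.1% DMSO as the solvent control or with the same solvent plus 1.65 µM aristolochic acid (AA), and RNA was taken after 6, 24 or 72 h. AA is a plant nitrophenanthrene that forms DNA adducts and injures the proximal tubule. DMSO and AA were each sampled at the 3 times, which gave 6 groups of 3 arrays. All groups carried DMSO and serum-containing medium, so an effect of time in solvent and one of time at confluence cannot be told apart. The labels name the arrays of a group as biological repeats without giving plate or day, so each p-value measures the spread between these cultures only.

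The proximal tubule takes back most of what the glomerulus filters. At the luminal brush border, sodium-coupled carriers such as NaPi-IIa (Slc34a1, phosphate) and SGLT2 (Slc5a2, glucose) bring solutes in, and aquaporin 1 (Aqp1) lets water follow through both faces of the cell. Megalin (Lrp2) and cubilin (Cubn) are the endocytic receptors that recover filtered proteins and vitamins. The light chain b0,+AT (Slc7a9) carries cystine and dibasic amino acids, and NBCe1 (Slc4a4) moves bicarbonate out of the cell into the blood. Aminopeptidase N (Anpep) and gamma-glutamyltransferase (Ggt1) are brush border enzymes that trim peptides and glutathione, and Gatm is the mitochondrial amidinotransferase of the first step of creatine synthesis. Cultured tubule cells are widely known to keep only some of these features.

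Levels were the authors' deposited values on a log2 scale, with 1 step for each doubling. Array medians lay between 4.03 and 4.20. Weak probe sets collected near log2 2, and 45.9% of the non-control probe sets stayed below log2 4 on every array. A probe set was tested when it reached log2 4 or more on at least 3 arrays, which 16253 did (52.4% of the non-controls), and it is said to have risen or fallen when the adjusted p of limma's moderated test was under 0.05. The median SD between arrays of a group was 0.13 over the tested probe sets. For the beta-actin control probe sets, the 3' level less the 5' level, which reflects RNA integrity, was 1.85 to 2.16 log2 units in AA 72 h, 1.29 to 1.45 in DMSO 72 h and 0.98 to 1.27 on all arrays at the earlier times. For the GAPDH control it was -0.12 to -0.04 in AA 72 h and -0.34 to -0.13 in the other groups.

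Of the 14 member probe sets, 7 from 5 genes (Aqp1, Slc4a4, Slc7a9, Gatm and Ggt1) reached log2 4 on at least 3 arrays, a share close to the 52.4% of all non-control probe sets. The other 7 stayed below log2 4 on every array. They were the second probe set of Gatm and every probe set of Lrp2, Cubn, Slc34a1, Slc5a2 and Anpep, so the labelled proximal tubule identity could not be read from those 5 genes. The plot of every member probe set against the threshold shows that only Slc4a4, by both probe sets, and Gatm, by 1 of 2, were above log2 4 on all 18 arrays.

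**Figure D1:**
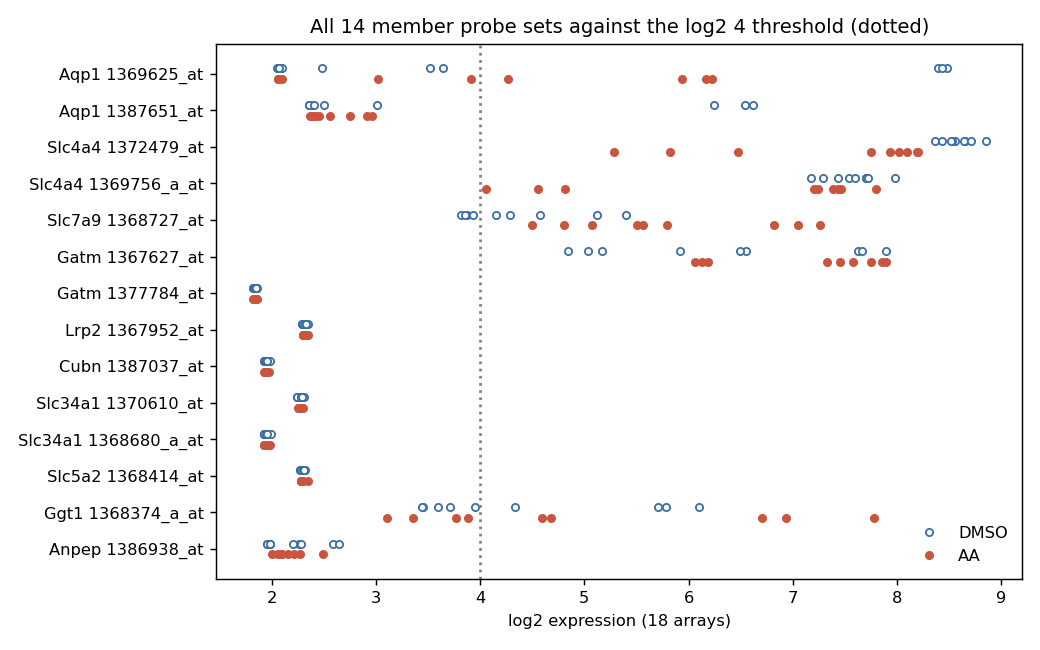
Log2 expression of the 14 member probe sets (rows) on the 18 arrays, as 1 point per array, open for DMSO and filled for AA, with the log2 4 threshold dotted. The probe sets of Lrp2, Cubn, Slc34a1 and Slc5a2 and Gatm 1377784_at form tight columns between 1.82 and 2.35, while those of Aqp1, Slc4a4, Slc7a9, Gatm 1367627_at and Ggt1 spread over several log2 units.

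Both endocytic receptors were near the floor. Lrp2 (1367952_at) lay between 2.29 and 2.35 and Cubn (1387037_at) between 1.93 and 1.98 over the 18 arrays. The 2 luminal sodium-coupled carriers were no higher, with Slc34a1 at 2.24 to 2.31 (1370610_at) and 1.93 to 1.99 (1368680_a_at) and Slc5a2 (1368414_at) at 2.27 to 2.35. The second Gatm probe set (1377784_at) lay at 1.82 to 1.86 while the first was well above the threshold, so a floor value of 1 probe set did not show that its gene was silent. For these 6 probe sets the largest range over 18 arrays was 0.08, below the median SD of 0.13 between repeats of tested probe sets.

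Anpep (1386938_at), the brush border aminopeptidase, also stayed below the threshold but with a wider range, from 1.96 to 2.65. Its 3 arrays read 1.98, 1.96 and 1.96 in DMSO 6 h, 1.98, 2.26 and 2.20 in DMSO 24 h, and 2.59, 2.28 and 2.65 in DMSO 72 h. In AA they read 2.0, 2.06 and 2.08 at 6 h, 2.49, 2.21 and 2.10 at 24 h, and 2.06, 2.27 and 2.16 at 72 h. The DMSO 72 h arrays were all above the other DMSO arrays, and all above those of AA 72 h. Without the filter, the rise from 6 to 72 h in DMSO was 0.54 ± 0.10 (SE) log2 units by limma (adjusted p = 0.000488, n = 3 a group), and AA at 72 h differed by -0.35 (adjusted p = 0.0231). That fit called 17882 probe sets for DMSO 72 h against 6 h (12103 higher and 5779 lower) and 6799 for AA at 72 h. Its calls from 6 to 72 h include shifts of 0.03 and 0.04 in other member probe sets at the floor. The Anpep values also lie where the background correction sets the scale, so their size is a description.

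The members also differ in the sequence before their starts, shown here for Aqp1, which rose with time, Slc4a4, which was above log2 4 on all arrays, and Slc34a1, which was at the floor on every array. Each line gives the 250 bases before the start in RefSeq's GRCr8 annotation, 5′ to 3′ on the gene's strand, with 1 start taken per gene. Capitals mark the letters TATAAA (the core of a TATA box), searched on both strands.
Aqp1 (chr4:85812534-85812783, plus strand): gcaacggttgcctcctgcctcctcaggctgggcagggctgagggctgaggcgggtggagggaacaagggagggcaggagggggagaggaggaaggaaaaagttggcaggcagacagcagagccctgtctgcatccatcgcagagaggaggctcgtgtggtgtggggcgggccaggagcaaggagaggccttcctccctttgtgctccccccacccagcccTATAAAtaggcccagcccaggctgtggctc
Slc4a4 (chr14:19468283-19468532, minus strand): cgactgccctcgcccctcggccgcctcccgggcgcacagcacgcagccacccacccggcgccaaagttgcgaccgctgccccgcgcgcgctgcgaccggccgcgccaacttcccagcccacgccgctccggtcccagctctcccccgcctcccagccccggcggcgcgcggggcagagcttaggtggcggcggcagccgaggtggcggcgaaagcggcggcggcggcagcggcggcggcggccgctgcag
Slc34a1 (chr17:9238984-9239233, minus strand): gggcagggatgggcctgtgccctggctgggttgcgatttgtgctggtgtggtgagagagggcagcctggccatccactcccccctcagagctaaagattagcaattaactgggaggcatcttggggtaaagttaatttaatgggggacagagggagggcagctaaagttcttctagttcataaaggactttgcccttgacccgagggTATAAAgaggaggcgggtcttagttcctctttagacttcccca
Aqp1 has TATAAA beginning 30 bases before its start, a motif found in 12.9% of 33469 promoter windows of this length. Slc34a1 has TATAAA beginning 43 bases before its start. Slc4a4 has no TATAAA but holds 42 CpG dinucleotides at 80.8% GC, against 5 CpG in Aqp1, 3 in Slc34a1 and a median of 5 over all windows. All 10 members matched the table. TATAAA was found in 2 of the 10 (Aqp1 and Slc34a1). The other motifs searched were AGGTCA (in 14.1% of all windows), CACGTG (5.6%), TGACGTCA (1.6%), GGGCGG (30.5%), TGANTCA (6.3%) and CCAAT (34.0%), which do not overlap the capitals. GGGCGG was found in Aqp1 and Lrp2, AGGTCA in Slc7a9 and Anpep, CCAAT in Gatm and Slc5a2 and TGANTCA in Slc5a2, while CACGTG and TGACGTCA were found in 0 of the 10. A match describes letters only and shows no binding.

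In the solvent control, Aqp1 came on with time, Gatm and Slc7a9 went up and came back, Ggt1 went down, and Slc4a4 did not change by the test. From 6 to 24 h, 3 of the 7 tested member probe sets rose (Aqp1 1369625_at, Slc7a9 and Gatm), 1 fell (Ggt1) and 3 did not pass, against 53.6% of all 16253 tested probe sets called (26.2% higher and 27.4% lower). From 24 to 72 h, 2 rose (both of Aqp1), 2 fell (Slc7a9 and Gatm) and 3 did not pass, against 35.2% (17.4% higher and 17.8% lower). From 6 to 72 h, 2 rose (both of Aqp1), 1 fell (Ggt1) and 4 did not pass, against 65.6% (31.5% higher and 34% lower). Large parts of the array moved with time, and Aqp1 1387651_at passed the filter only through the arrays of DMSO 72 h, so these counts over passing probe sets say nothing particular about the members.

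**Figure D2:**
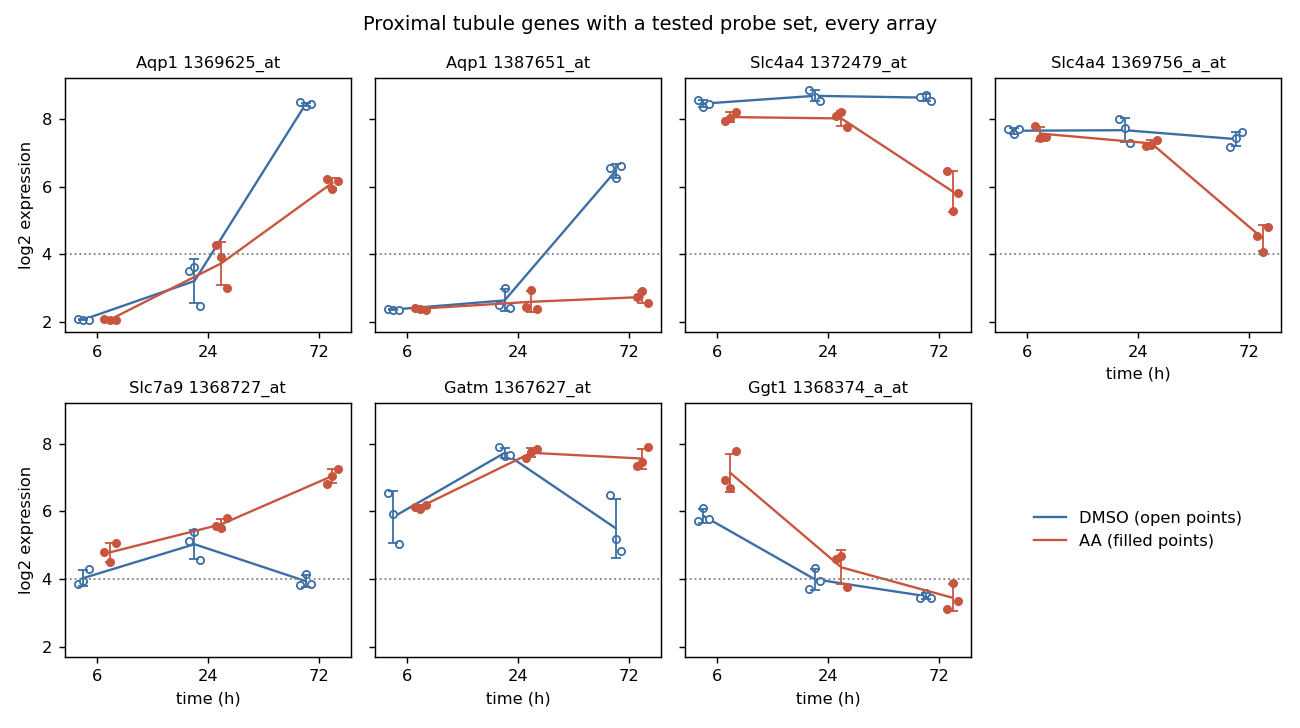
Log2 expression of the 7 tested member probe sets at 6, 24 and 72 h (evenly spaced), with 1 point per array, lines through the group means and bars of 1 SD (n = 3); DMSO is blue and open, AA red and filled, and the dotted line marks log2 4. Aqp1 climbs in DMSO to 8.43 and 6.47 at 72 h and is lower in AA 72 h. Slc4a4 is lowest in AA 72 h, and Slc7a9 and Gatm are higher in AA than in DMSO at 72 h.

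Aqp1, the water channel, was near the floor early and well above it by 72 h. Probe set 1369625_at read 2.10, 2.05 and 2.07 in DMSO 6 h, 3.52, 3.64 and 2.48 in DMSO 24 h, and 8.48, 8.39 and 8.43 in DMSO 72 h. All 3 groups were apart from each other, and only the 72 h arrays exceeded log2 4. The log2 fold change was 1.14 ± 0.28 from 6 to 24 h (adjusted p = 0.00234, n = 3 a group) and 5.22 ± 0.28 from 24 to 72 h (adjusted p = 1.9e-09). From 6 to 72 h it was 6.36 ± 0.28 (adjusted p = 6.1e-12). Both earlier levels are close to the floor, so the size of these changes depends on the background correction. This probe set reached log2 4 on 7 arrays, those of both 72 h groups and 1 of AA 24 h. The filter therefore leaned on 72 h, though not on DMSO 72 h alone.

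The second Aqp1 probe set, 1387651_at, was also high in DMSO only at 72 h. It read 2.39, 2.36 and 2.36 in DMSO 6 h, 2.50, 3.01 and 2.41 in DMSO 24 h, and 6.54, 6.24 and 6.62 in DMSO 72 h. The 72 h arrays stood clear of both earlier groups. From 6 to 24 h it differed by 0.27 (adjusted p = 0.261, n = 3 a group), and its mean was 3.83 log2 units higher at 72 h than at 24 h. It passed the filter only through the DMSO 72 h arrays and the earlier levels are near the floor, so this difference is a description with no p, and its size depends on the background correction. The 2 probe sets had a Pearson correlation of 0.85 over the 18 arrays, which share time and treatment.

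Gatm, which makes guanidinoacetate for creatine, peaked at 24 h in DMSO. Probe set 1367627_at read 6.55, 5.92 and 5.03 at 6 h, 7.89, 7.62 and 7.66 at 24 h, and 6.49, 5.17 and 4.84 at 72 h. The 24 h arrays were all above the others, while the 6 h and 72 h arrays overlapped and varied most between repeats (SD 0.76 and 0.87). Gatm rose by 1.89 ± 0.35 from 6 to 24 h (adjusted p = 0.000179, n = 3 a group) and changed by -2.22 ± 0.35 from 24 to 72 h (adjusted p = 9.09e-05). From 6 to 72 h the difference was -0.33 (95% interval -1.06 to 0.40, adjusted p = 0.415). Without DMSO 72 h replicate 1, the highest of its group, this last value was -0.83 and passed (adjusted p = 0.0229).

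Slc7a9, the cystine and dibasic amino acid exchanger subunit, also peaked at 24 h in DMSO. Its arrays read 3.87, 3.93 and 4.29 in DMSO 6 h, 5.12, 5.40 and 4.57 in DMSO 24 h, and 3.82, 4.15 and 3.85 in DMSO 72 h. The 24 h arrays were above log2 4 and above the other DMSO groups, which overlapped each other around the threshold. The log2 fold change was 1.0 ± 0.21 from 6 to 24 h (adjusted p = 0.000687, n = 3 a group) and -1.09 ± 0.21 from 24 to 72 h (adjusted p = 0.000674). From 6 to 72 h it was -0.09 (95% interval -0.54 to 0.35, adjusted p = 0.717).

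Ggt1, the brush border transferase that cleaves extracellular glutathione, went down after 6 h. In DMSO its arrays (1368374_a_at) read 5.71, 6.10 and 5.78 at 6 h, 3.71, 4.33 and 3.95 at 24 h, and 3.45, 3.60 and 3.44 at 72 h. The groups did not overlap, and 1 of the 6 later arrays exceeded log2 4. Ggt1 changed by -1.87 ± 0.28 from 6 to 24 h (adjusted p = 2.71e-05, n = 3 a group). The further difference of -0.50 from 24 to 72 h did not pass (adjusted p = 0.192), and from 6 to 72 h it fell by 2.36 on the log2 scale (adjusted p = 9.82e-07).

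Slc4a4, the basolateral sodium bicarbonate cotransporter, stayed well above log2 4 in DMSO at each time. Probe set 1372479_at read 8.55, 8.36 and 8.43 at 6 h, 8.85, 8.65 and 8.53 at 24 h, and 8.64, 8.71 and 8.52 at 72 h. Probe set 1369756_a_at read 7.70, 7.54 and 7.70, then 7.98, 7.72 and 7.29, then 7.17, 7.43 and 7.60 at the same times. The groups overlapped between neighbouring times for both probe sets. From 6 to 72 h the differences were 0.18 (95% interval -0.26 to 0.61, adjusted p = 0.469) and -0.25 (-0.65 to 0.16, adjusted p = 0.267), and neither passed.

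With AA at 6 h, Ggt1 and Slc7a9 rose. Of the 7 tested probe sets these 2 rose, 0 fell and 5 did not pass, against 21.4% of all tested probe sets called, 9.62% higher and 11.8% lower, so the count called was not far from the background. The 2 Aqp1 probe sets, at the floor in both groups, differed by -0.00 and 0.02, and Gatm by 0.29 (adjusted p = 0.581). Slc4a4 differed by -0.40 (1372479_at, adjusted p = 0.178) and -0.08 (1369756_a_at, adjusted p = 0.792). For 1372479_at every AA 6 h array was below every DMSO 6 h array. The split of all calls at 6 h followed the scaling, with 1564 higher and 1918 lower as deposited and 2374 higher and 1151 lower with each array centred on its median; both members passed under either.

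Ggt1 had the larger of the 2 rises. It read 6.93, 6.70 and 7.78 in AA 6 h against 5.71, 6.10 and 5.78 in DMSO 6 h, with no overlap. The log2 fold change was 1.27 ± 0.28 (adjusted p = 0.00567, n = 3 a group), rank 28 among all rises at 6 h. Without AA 6 h replicate 3, the highest array, it was 0.95 and still passed (adjusted p = 0.0418).

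Slc7a9 read 4.80, 4.50 and 5.07 in AA 6 h against 3.87, 3.93 and 4.29 in DMSO 6 h, also without overlap. The log2 fold change was 0.76 ± 0.21 (adjusted p = 0.0185, n = 3 a group). This call depended on single arrays: it ended without DMSO 6 h replicate 1 (0.68, adjusted p = 0.0585) or replicate 2 (0.71, 0.0612), without AA 6 h replicate 3 (0.62, 0.102), and when only the 6 h arrays were fitted (adjusted p = 0.0584).

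At 24 h no member passed. Of the 7 tested probe sets 0 were called by limma, against 1.43% of all tested probe sets (1.2% higher and 0.234% lower), while 2 had an unadjusted p under 0.05. These were Slc4a4 1372479_at, with an unadjusted p of 0.00455, and Slc7a9, with 0.0131. Slc4a4 read 8.09, 8.19 and 7.75 in AA 24 h against 8.85, 8.65 and 8.53 in DMSO 24 h, and the groups did not overlap. Its log2 fold change was -0.67 (95% interval -1.10 to -0.24, adjusted p = 0.149), and with array quality weights, which count noisy arrays less, it was -0.68 and passed (adjusted p = 0.00986). The second Slc4a4 probe set read 7.20, 7.24 and 7.38 in AA 24 h, a difference of -0.39 (adjusted p = 0.49).

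Slc7a9 read 5.56, 5.50 and 5.79 in AA 24 h, all above the DMSO 24 h arrays, a difference of 0.59 (adjusted p = 0.271). Aqp1 1369625_at read 4.27, 3.91 and 3.02 in AA 24 h, overlapping DMSO 24 h, and its difference was 0.52 (adjusted p = 0.544). Aqp1 1387651_at, at 2.45, 2.96 and 2.39, differed by -0.04. Gatm read 7.58, 7.75 and 7.85 in AA 24 h and differed by 0.00 (adjusted p = 1); its AA arrays at 6 h had read 6.13, 6.06 and 6.19. Ggt1, at 4.59, 4.68 and 3.77, differed by 0.36 (adjusted p = 0.736).

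At 72 h the members moved in opposite directions with AA: Slc7a9 and Gatm were higher, Slc4a4 and Aqp1 were lower, and Ggt1 did not differ detectably. Of the 7 tested probe sets 2 rose, 4 fell and 1 did not pass, against 44.5% of all tested probe sets called, 23.5% higher and 21% lower. The called probe sets came from 4 genes, since both of Aqp1 and both of Slc4a4 fell. One of the falls, of Aqp1 1387651_at, is a probe set that passed the filter only through the DMSO 72 h arrays, so the count is a description. The 7 member values had sizes from 0.04 (Ggt1) to 3.72, and the median absolute log2 fold change was 0.29 over all tested probe sets and 0.60 over those called. In whole cultures, fewer cells that express a gene and less RNA per cell cannot be told apart. The beta-actin 3' to 5' difference was also higher in AA 72 h, as given above, and its part in these results was not tested.

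**Figure D3:**
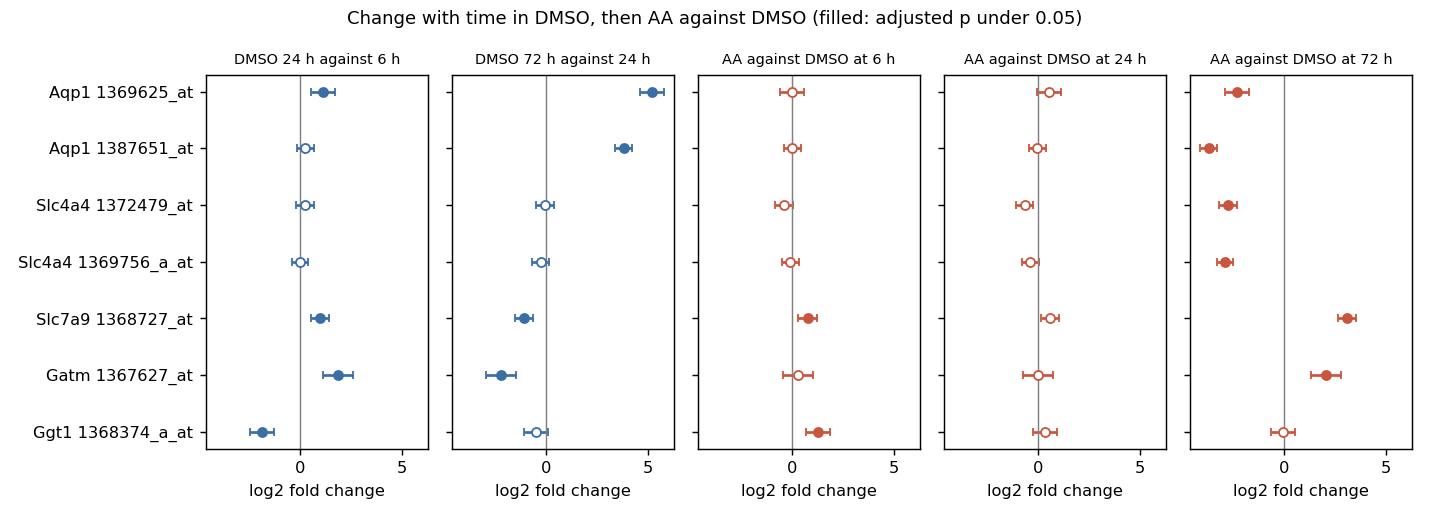
Log2 fold change of the 7 tested member probe sets (rows) in 2 steps of time in DMSO and in AA against DMSO at each time (columns); bars are 95% intervals, and filled points passed limma at adjusted p under 0.05. At 24 h no AA point is filled, and at 72 h Ggt1 is the only open one. Aqp1 1387651_at passed the filter only through the DMSO 72 h arrays. Its filled points and intervals in the comparisons that use those arrays are therefore a description and not a test.

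Slc7a9 was the member that rose most with AA. It read 6.82, 7.05 and 7.26 in AA 72 h against 3.82, 4.15 and 3.85 in DMSO 72 h, far apart. The log2 fold change was 3.11 ± 0.21 (adjusted p = 2.13e-09, n = 3 a group), or 8.6-fold, rank 30 among the rises. In AA the group means went from 4.79 to 5.62 to 7.04 with time, while in DMSO they returned to 3.94. The partner of its product, the heavy chain gene Slc3a1 that brings the exchanger to the membrane, stayed between 2.10 and 2.27 on all arrays.

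Gatm read 7.33, 7.45 and 7.89 in AA 72 h against 6.49, 5.17 and 4.84 in DMSO 72 h, with no overlap. It rose by 2.05 ± 0.35 (adjusted p = 0.000109, n = 3 a group), or 4.16-fold. The AA 72 h arrays overlapped those of both 24 h groups, while the DMSO 72 h arrays were below both.

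Slc4a4 fell with AA by both probe sets. Probe set 1372479_at read 6.47, 5.28 and 5.82 in AA 72 h against 8.64, 8.71 and 8.52 in DMSO 72 h, and 1369756_a_at read 4.55, 4.06 and 4.81 against 7.17, 7.43 and 7.60. Every AA 72 h array was below every other array of the series for each probe set. The log2 fold changes were -2.76 ± 0.21 (adjusted p = 6.64e-09, n = 3 a group) and -2.92 ± 0.19 (adjusted p = 1.27e-09). The levels stayed above log2 4, and the 2 probe sets had a correlation of 0.95 over 18 arrays.

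Slc4a4 spans 452.0 kb in GRCr8, and 70 of 8986 tested genes with a span (0.78%) are at least as long. At AA 72 h, 64 of those 70 genes (91.4%) were lower, against 1733 (19.3%) of all 8986, and their median log2 fold change was -1.93 against 0.05 over all. Of the 70, 13 including Slc4a4 had a value at or below that of Slc4a4 1372479_at. The other tested members span less, from 12.2 kb for Aqp1, with 70.79% of the tested genes at least as long, to 29.4 kb for Ggt1, with 43.27%. Whether span, or the beta-actin difference of the same arrays, had a part in the fall of Slc4a4 was not tested.

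Aqp1 was lower in AA 72 h than in DMSO 72 h by both probe sets, which differed on what remained. Probe set 1369625_at read 6.22, 5.94 and 6.17 in AA 72 h against 8.48, 8.39 and 8.43, a log2 difference of -2.33 ± 0.28 (adjusted p = 3.02e-06, n = 3 a group). Its AA 72 h arrays were above all arrays of 6 and 24 h. Probe set 1387651_at read 2.75, 2.91 and 2.56 in AA 72 h against 6.54, 6.24 and 6.62, a difference in means of -3.72 that is given with no p, since the probe set passed the filter only through DMSO 72 h and its AA 72 h level is near the floor. By this probe set AA 72 h overlapped AA 24 h and DMSO 24 h near the floor. Whether Aqp1 was above log2 4 in AA 72 h therefore depended on the probe set.

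Ggt1 read 3.11, 3.88 and 3.36 in AA 72 h and 3.45, 3.60 and 3.44 in DMSO 72 h, all below log2 4. The difference was -0.04 (95% interval -0.64 to 0.55, adjusted p = 0.915, n = 3 a group).

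The change of the AA effect from 24 to 72 h was tested directly. For 6 of the 7 tested probe sets, from 4 genes, it passed, 2 higher and 4 lower, against 29.6% of all tested probe sets (15.7% higher and 13.8% lower). The lower ones include Aqp1 1387651_at, which passed the filter only through the DMSO 72 h arrays, so the count is a description. The change of the effect was 2.52 ± 0.30 for Slc7a9 (adjusted p = 7.67e-06) and 2.05 ± 0.49 for Gatm (adjusted p = 0.00442). For Slc4a4 it was -2.09 and -2.54, for Aqp1 -2.85 and, by the probe set that passed only through DMSO 72 h, -3.68, and for Ggt1 -0.40 ± 0.40 (adjusted p = 0.486). From 6 to 24 h the change of the effect passed for 0 of the 7, by limma, against 0.948% of all (0.548% higher and 0.4% lower); Ggt1, at -0.92 ± 0.40, was the only one with an unadjusted p under 0.05 (0.0349; adjusted p = 0.247).

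**Figure D4:**
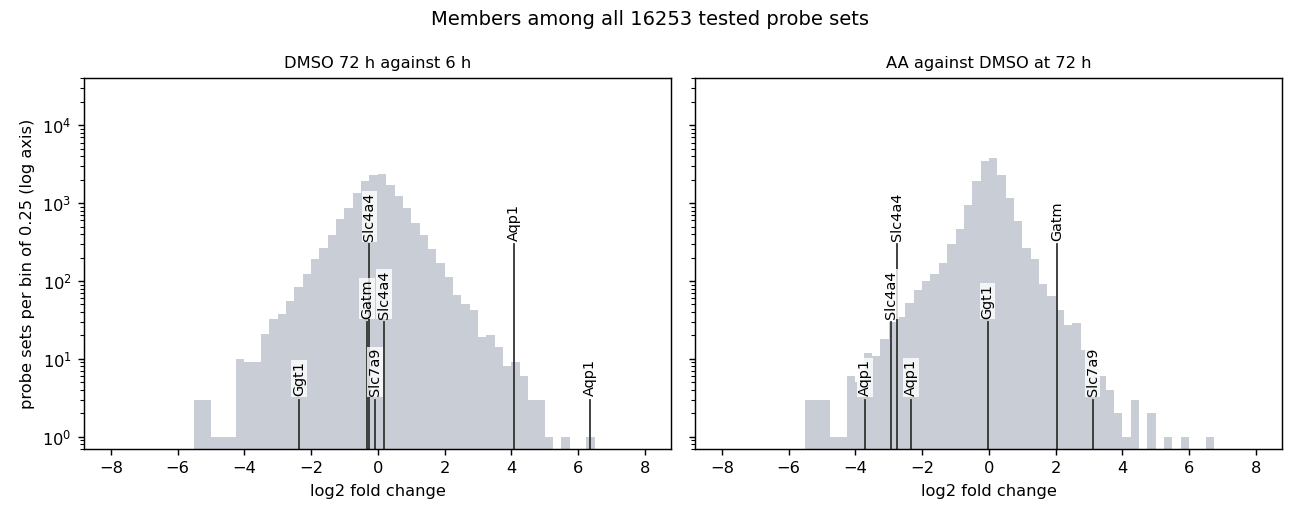
Numbers of tested probe sets (log axis) by log2 fold change in bins of 0.25, for DMSO 72 h against 6 h (left) and AA against DMSO at 72 h (right), with the 7 member probe sets marked by vertical lines of arbitrary height. Aqp1 1369625_at, at 6.36, lies at the far right of the left panel, and on the right Slc7a9 and Gatm lie in the upper tail and Slc4a4 and Aqp1 in the lower.

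Ordered by level, the 6 groups gave a different sequence for each gene. For Aqp1 1369625_at DMSO 72 h was highest, then AA 72 h, then both 24 h groups, which overlapped, then both 6 h groups, which overlapped. For Slc7a9 AA 72 h was highest and AA 24 h next, each apart from the rest; DMSO 24 h and AA 6 h overlapped below them, and the other DMSO groups, 6 h and 72 h, overlapped at the bottom. For Ggt1 AA 6 h was highest, then DMSO 6 h; AA 24 h and DMSO 24 h overlapped below them, as did DMSO 72 h and AA 72 h at the bottom. For Gatm AA 24 h, DMSO 24 h and AA 72 h overlapped at the top, apart from the other 3 groups. Both Slc4a4 probe sets had AA 72 h at the bottom, apart from the group above.

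The other genes of proximal tubule function were taken from 6 lists with 109 genes, of which 89 had a probe set with a single symbol and 28 were tested, 1 probe set a gene. These lists were chosen with earlier results of these data known, so their counts are a description. In DMSO 8 of the 28 rose and 9 fell from 6 to 72 h, and 11 did not pass, so 60.7% were called against 65.6% of all tested probe sets, with a median log2 fold change of -0.07 against -0.02. The rises include Khk, which passed the filter only through arrays of 72 h. With AA at 72 h 11 rose, 5 fell and 12 did not pass, so 57.1% were called against 44.5%, with a median of 0.15 against 0.03. At 6 h 4 rose, 4 fell and 20 did not pass, 28.6% called against 21.4%. At 24 h limma called 0 of the 28 against 1.43%. The medians at these times were -0.01 and -0.03.

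Among the direct partners of the members, 5 of 12 on the array were tested. In DMSO from 6 to 72 h 3 rose, 1 fell and 1 did not pass. Over all tested probe sets 31.5% were higher and 34% lower. Dab2, the adaptor that links megalin to clathrin, rose most: its arrays read 10.04, 9.94 and 10.16 in DMSO 6 h, 12.31, 12.26 and 12.18 in DMSO 24 h, and 12.97, 12.99 and 12.96 in DMSO 72 h. The log2 fold change over that time was 2.93 ± 0.09 (adjusted p = 1.02e-13, n = 3 a group). Lrpap1, the chaperone of the megalin family, rose by 0.92 ± 0.08 from a mean of 11.10 to 12.02, and the creatine transporter gene Slc6a8 by 0.42 (adjusted p = 0.000436). Atp1b1, a subunit of the sodium pump, fell by 0.21 (adjusted p = 0.0103). The receptors that these helpers serve, Lrp2 and Cubn, stayed near the floor, as did Amn, the membrane partner of cubilin, at 2.35 to 2.44.

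With AA at 72 h 1 of these 5 partners rose, 3 fell and 1 did not pass, against 23.5% of all tested probe sets higher and 21% lower. The 2 creatine genes next to Gatm moved apart. Gamt, which methylates the product of Gatm into creatine, read 5.47, 5.87 and 5.51 in AA 72 h against 7.30, 7.14 and 7.02 in DMSO 72 h. It fell by 1.54 on the log2 scale (SE 0.15, adjusted p = 2.55e-07, n = 3 a group). Slc6a8 read 11.34, 11.53 and 11.41 against 10.37, 10.51 and 10.47 and rose by 0.98 ± 0.09 (adjusted p = 8.65e-08). In DMSO Gamt had gone up with Gatm from 6 to 24 h (0.99, adjusted p = 2.86e-05) and down from 24 to 72 h (-0.66, adjusted p = 0.00274). Dab2 and Atp1b1 fell by 0.32 and 0.25, and Lrpap1 differed by -0.08 (adjusted p = 0.444).

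**Figure D5:**
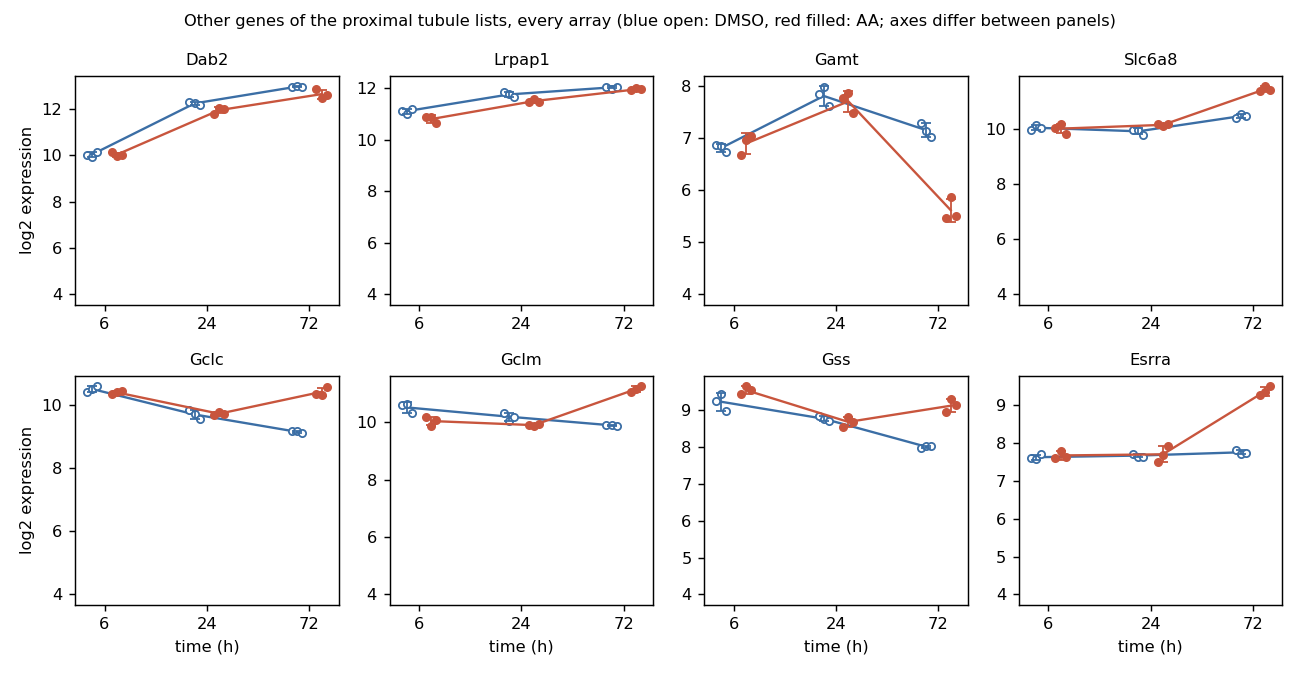
Log2 expression of 8 other genes of the proximal tubule lists at 6, 24 and 72 h (evenly spaced), with 1 point per array, lines through the group means and bars of 1 SD (n = 3); DMSO is blue and open, AA red and filled, and the vertical axes differ between panels. Dab2 climbs in both arms, Gamt drops in AA 72 h, and Slc6a8, Gclc, Gclm, Gss and Esrra lie above DMSO in AA 72 h.

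Of 23 other proximal tubule transporters on the array only 3 were tested, and the rest stayed below the filter. Slc20a2, a sodium phosphate carrier, fell from 6 to 72 h in DMSO (-0.53, adjusted p = 0.00585) and with AA at 72 h (-0.52, adjusted p = 0.0111). Slc22a5, the carnitine carrier, rose with AA at 72 h (0.64, adjusted p = 0.000118). Slc5a1, the glucose carrier SGLT1, and Pdzk1, a scaffold of brush border carriers, lay at 2.16 to 2.21 and 1.93 to 1.98.

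Of 12 endocytosis genes on the array 10 were tested. From 6 to 72 h in DMSO 4 rose and 2 fell, against 31.5% of all tested probe sets higher and 34% lower. Besides Dab2 and Lrpap1, Ocrl, the phosphatase altered in Lowe syndrome, rose by 0.87 (adjusted p = 0.000661). The transferrin receptor gene Tfrc and the motor gene Myo6 fell by 1.57 and 1.18. With AA at 72 h 2 rose (Gipc1 by 0.44 and Rab11a by 0.20), 2 fell (Ehd1 by 0.77 and Dab2) and 6 did not pass. Over all tested probe sets 23.5% were higher and 21% lower. Of 15 brush border genes on the array 3 were tested. From 6 to 72 h in DMSO Ezr, which ties actin to the membrane, rose by 0.48. The endopeptidase gene Mme fell by 0.55 over that time (adjusted p = 0.039). For AA at 72 h limma called 0 of the 3, against 44.5% of all tested probe sets. There Mme differed by -0.55 (adjusted p = 0.0547).

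Of 22 metabolic enzymes on the array 7 were tested. In DMSO 2 rose, 4 fell and 1 did not pass from 6 to 72 h. Over all tested probe sets 31.5% were higher and 34% lower. With AA at 72 h 5 of the 7 rose, 0 fell and 2 did not pass, against 23.5% higher and 21% lower over all. The 2 comparisons share the DMSO 72 h arrays. This list too was chosen with earlier results of these data known, so its counts are a description. The 3 largest rises with AA were of Gclc, Gclm and Gss, which make glutathione, and the other rises, named here after their values were seen, were of Acy1 (0.48) and Sord (0.26). Gclc, the catalytic subunit of the rate-limiting ligase, read 10.42, 10.51 and 10.60 in DMSO 6 h, 9.17, 9.18 and 9.11 in DMSO 72 h, and 10.36, 10.33 and 10.57 in AA 72 h. It fell by 1.36 from 6 to 72 h in DMSO (adjusted p = 3.54e-10) and rose by 1.27 ± 0.09 with AA at 72 h (adjusted p = 1.82e-09). Gss, the second enzyme of the pathway, fell by 1.22 and rose by 1.11, and Gclm, the regulatory subunit, fell by 0.63 and rose by 1.27. Ggt1, which breaks glutathione down, was below log2 4 in both 72 h groups. Asl, a urea cycle enzyme, rose with time in DMSO by 0.57. Khk, the fructose kinase, was the other call, from a floor level of 2.31 to 2.33 at 6 h to 3.13, 3.85 and 4.26 at 72 h, too low for its fold change to be sized. Khk reached log2 4 on 3 arrays only, all of 72 h, so it passed the filter through that time and its call is a description.

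Of 8 tubule transcription factors on the array 2 were tested, Esrra and Maf, and limma called both higher with AA at 72 h, against 23.5% of all tested probe sets. Esrra, an activator of mitochondrial genes, read 9.27, 9.34 and 9.50 in AA 72 h against 7.81, 7.72 and 7.73 in DMSO 72 h (1.62 ± 0.11, adjusted p = 3.25e-09, n = 3 a group). Maf rose by 1.11 ± 0.38 (adjusted p = 0.0241) from a DMSO mean below log2 4. Hnf4a, which drives many proximal tubule genes, lay at 2.29 to 2.38 and Pax8 at 2.33 to 2.44. Slc9a3r1 was not analysed here.

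Markers of other cell types were read beside the members. Of 13 loop, distal and collecting duct genes on the array 0 reached the filter, and Umod, Slc12a1, Slc12a3 and Aqp2 lay between 1.96 and 2.37. Of 10 epithelial genes 2 did, Krt8 (12.57 to 14.26) and Tjp1 (13.32 to 13.85), while Krt18, Epcam and Cdh1 lay at or below 2.64. Of 8 fibroblast genes 3 did, among them Col3a1 at 13.88 to 14.69, while Dcn, Lum and Pdgfra lay at or below 2.27. Among podocyte genes Wt1 and Synpo of 4 did, and Nphs1 did not; among endothelial genes Tek and Egfl7 of 6 did, and Pecam1, Kdr and Vwf did not. Of 7 immune genes Cd14 (11.11 to 12.03) and Cd68 did, and Ptprc, Lyz2 and Cd79b did not.

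Some of these lists moved with the groups. Summed on the linear scale, the podocyte list was at 182 to 249 in DMSO 6 h, 621 to 669 in DMSO 72 h and 825 to 873 in AA 72 h. The fibroblast list was at 24345 to 27314, 25392 to 27845 and 19849 to 23556 in the same groups, and the endothelial list at 104 to 170, 137 to 159 and 99 to 105. The immune list was at 2851 to 3610, 2249 to 2550 and 2409 to 2588, and the epithelial list at 21899 to 24712, 20482 to 21925 and 22597 to 24236. The loop, distal and collecting duct list stayed at 61 to 65 in all 3. These sums are carried by their brightest genes. In DMSO Col1a1 fell by 4.15 from 6 to 72 h (adjusted p = 4.86e-11) and Col1a2 by 1.15, while Col3a1 rose by 0.33 and fell by 0.32 with AA at 72 h. From 6 to 72 h in DMSO Synpo rose by 2.0, Tek by 1.66 and Tjp1 by 0.44, while Krt8 (-0.92), Egfl7 (-0.63) and Cd14 (-0.47) fell. Over that time Wt1 (-0.23) and Cd68 (-0.42) did not pass. With AA at 72 h Wt1 rose by 0.81, Synpo by 0.36, Krt8 by 0.55 and Cd68 by 1.90 (adjusted p = 0.000362) while Tek fell by 2.02. Egfl7 (0.29), Cd14 (0.03), Tjp1 (-0.10), Col1a1 (0.47) and Col1a2 (-0.28) did not pass there. Whether these shifts had a part in the changes of the members was not tested.

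Other probe sets followed the members closely over the 18 arrays. Among 12505 tested probe sets with a single symbol, the pattern of Aqp1 1369625_at was most like that of Isoc1 (Pearson r = 0.985), Eny2 (0.981) and Shroom3 (0.976). Slc4a4 1372479_at was most like Pcca (0.976), Dock1 (0.971) and Atrnl1 (0.970), whose means went from 7.77, 9.61 and 9.34 in DMSO 72 h to 3.66, 7.23 and 5.69 in AA 72 h. Slc7a9 was most like Sumf2 (0.975), Abhd4 (0.959) and Pkp2 (0.953). Gatm was most like Hebp1 (0.884), Smim14 (0.868) and Blvrb (0.861), and Ggt1 like Pomp (0.977), Mrpl54 (0.973) and Mrpl12 (0.972). These correlations describe arrays that share time and treatment, and they carry no test.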

How the data were processed

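Each value was the authors' deposited log2 expression of 1 probe set on 1 Affymetrix rat array. The submitters' processing notes name GCRMA, a method that models background by probe sequence before normalizing and summarising. Its settings and any genome build were not given in the sources used here. Weak probe sets pile up near the floor it sets, where fold changes depend on the background model, and no detection calls were used. For arrays, their number limits the precision.

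Of 31099 probe sets, 57 were controls, 20832 had 1 gene symbol, 436 several and 9831 none in the platform annotation, and no member symbol was found among those with several; 20764 of the single-symbol probe sets matched a gene of the RefSeq table for GRCr8 by gene number. All 18 arrays were fitted in R 4.3.3 with limma 3.58.1 as 6 group means, with empirical Bayes moderation along an intensity trend (12 residual and a median of 5.73 prior degrees of freedom). Benjamini-Hochberg adjustment covered all 16253 probe sets tested. The steps were tested on simulated data. The members and gene lists were chosen with earlier results of these data known. Every member probe set is reported; from the lists, 12 partners of the members are always named, with up to 3 largest called rises and 3 falls a list for DMSO 72 h against 6 h and AA at 72 h. A gene of a list is its single-symbol probe set of highest mean, and likeness is Pearson's r of the member's highest probe set over tested probe sets of other genes. ± after a fold change is its SE and after a level the SD. Alternatives were centring, the filter, 1 probe set a gene, no trend, the arrays fitted, array weights, the replicate number as a block and leaving out each array.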

Additional observations from a re-analysis of the deposited data

Results flagged for a closer look

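By limma's test of the difference itself, the AA effect at 72 h differed from that at 24 h for 6 member probe sets of 4 genes. That count includes Aqp1 1387651_at, which is given below as a description only. The change of the log2 effect was -2.85 ± 0.40 (SE) for Aqp1 1369625_at (adjusted p = 4.06e-05) and -3.68 ± 0.28 for Aqp1 1387651_at. The second Aqp1 probe set passed the filter only through DMSO 72 h and lay near the floor in the other groups of this contrast, so its value is a description with no p. For Slc4a4 it was -2.09 ± 0.29 by 1372479_at (adjusted p = 3.92e-05) and -2.54 ± 0.27 by 1369756_a_at (adjusted p = 2.29e-06). For Slc7a9 it was 2.52 ± 0.30 (adjusted p = 7.67e-06) and for Gatm 2.05 ± 0.49 (adjusted p = 0.00442). The DMSO level of Aqp1, Gatm and Slc7a9 itself also changed between these times, up for Aqp1 and down for Gatm and Slc7a9.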

How the results depend on the processing

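Of 852 member fold changes recomputed under an alternative, 844 kept their side of the threshold, 17 of them with a turned sign where neither setting called them; 4 lost and 4 gained a call in the same direction, and 0 reversed after a call. Leaving out 1 array kept 416 of 420. The 4 lost were all Slc7a9 at 6 h. The gains with array quality weights were Slc4a4 1369756_a_at (-0.41) and Ggt1 (-0.60) from 24 to 72 h in DMSO and Slc4a4 1372479_at at 24 h, and Gatm gained 1 without DMSO 72 h replicate 1. The count of 7 member probe sets at log2 4 was the same with a threshold of 3 or 5 or with centring.

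Member calls at 6 h were 1 with only the arrays compared and 1 to 2 leaving out 1 array; at 24 h array weights called 1; without the filter DMSO 72 h against 6 h called 8 members, in part by shifts of 0.03 to 0.04 at the floor. With 1 probe set a gene, where fewer were tested, the counts over all genes were 5296, 3095 and 6085 for the 3 time comparisons in DMSO (24 against 6 h, 72 against 24 h, 72 against 6 h), 2211 and 4257 for AA at 6 and 72 h, and 2921 for the change to 72 h. Without the filter they were 17882 for DMSO 72 against 6 h (12103 higher and 5779 lower, against 5122 and 5532 with it), 133 for AA at 24 h and 27 for the change from 6 to 24 h. With only the arrays compared they were 866, 94 and 20 for AA at 6 h, AA at 24 h and that change, and with array weights 544 and 1148 for the last pair. With no trend that change had 94, and with centring 39 higher and 70 lower against 89 and 65. Leaving out 1 array gave 1424 (without AA 6 h replicate 3) to 3835 at 6 h, 96 (without DMSO 24 h replicate 1) to 216 at 24 h, and 1 (without AA 24 h replicate 2) to 375 (without AA 6 h replicate 1) for the change from 6 to 24 h. The cause was not tested.

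Deviations of same-numbered arrays from their group means correlated at -0.15 to 0.29, over 0.1 in 6 of 18 pairs. In 11 of these 18 pairs the array of the first-named group correlated best with its own number. The pairs share arrays between comparisons, so they are not independent. The numbers were not taken to pair arrays, and some shared deviation is not excluded. In the fit with a replicate block, member counts were 4, 4 and 3 in the DMSO comparisons. They were 2, 0 and 6 for AA at 6, 24 and 72 h and 0 and 6 for the changes between them. All probe sets called were 8797, 5775, 10715, 3524, 215, 7290, 141 and 4842. Signal limits the floor members, and a level there cannot be ranked.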
